A study of Mus musculus with 192 samples.

Results

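The genes of the NF-kB transcription factor and of its inhibitors were followed in mouse bone marrow-derived dendritic cells (BMDCs), antigen-presenting cells grown from bone marrow. The set holds 10 genes chosen by name. 5 of them encode the NF-kB subunits (Nfkb1, Nfkb2, Rel, Rela and Relb) and 5 encode proteins of the IkB family (Nfkbia, Nfkbib, Nfkbie, Nfkbiz and Bcl3). They are 10 of the 23481 genes in the count table, and all 10 were among the 4720 genes (20.1%) that passed a filter on low counts. Rel had 2 counts in the 3 Ctrl libraries together, so it passed through groups in which it was higher, and its presence among the tested genes is no result. Bcl3, Nfkbib, Nfkbie and Nfkbiz did not pass the filter with the libraries of the ligand HMW and Ctrl alone. Their presence among the tested genes is no result either.

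The cells came from female C57BL/6J mice aged 6 to 8 weeks and were grown with 15 ng/mL of the growth factor GM-CSF. After a night on plates (100000 cells per well) ligands of pattern recognition receptors (innate sensors of microbial molecules) were added, and the cells were lysed at 6 h. The ligands carry the names of the labels: PAM, LPS (bacterial lipopolysaccharide, sensed by the receptor TLR4), HMW, Zymosan (labelled "Zymosan depleted"), SeV, cGAMP (3',3'-cGAMP, a cyclic dinucleotide sensed by STING) and CpGB. The 64 groups were Ctrl, each of the 7 ligands alone, all 21 pairs and all 35 triplets, with 3 libraries per group. No dose was used here, and what the Ctrl wells received was not given in the sources used here. The labels number the libraries of a group but do not say whether they came from separate cultures or mice, so p-values measure only the spread between these libraries, which may be technical.

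NF-kB binds DNA as dimers of its 5 subunits. RelA, c-Rel (gene Rel) and RelB carry an activation domain, whereas the products of Nfkb1 and Nfkb2 are precursors that are processed to shorter DNA-binding subunits and that can also hold dimers in the cytoplasm. The classical inhibitors IkB-alpha (Nfkbia), IkB-beta (Nfkbib) and IkB-epsilon (Nfkbie) retain dimers in the cytoplasm until the IKK kinases mark them for degradation. IkB-zeta (Nfkbiz) and Bcl-3 (Bcl3) are atypical members that act in the nucleus on dimers already bound to DNA. In myeloid cells, Toll-like receptor ligands activate the pathway within minutes, and several of its inhibitors and subunits are themselves known target genes, which forms a feedback loop.

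Expression was read as counts of unique molecular identifiers (UMIs, tags that mark 1 original cDNA molecule) and is given as CPM, a gene's counts per 1000000 counts of the scaled library. It is a level per molecule that is not divided by gene length. Library totals ran from 46564 to 610234 counts (median 171616.5), and the 3 Ctrl libraries held 61823, 68941 and 89530. No group had a lower mean total than Ctrl, so every comparison with Ctrl sets a shallower group against a deeper one. Summed over Ctrl, the members had 115 counts (Nfkbia), 55 (Nfkb1), 37 (Relb), 36 (Nfkb2), 30 (Rela), 15 (Nfkbie), 11 (Nfkbib), 10 (Nfkbiz), 9 (Bcl3) and 2 (Rel), so the last 5 were least precisely measured in the group to which every fold change against Ctrl refers. The labelled cell type was checked against 11 markers of dendritic and myeloid cells, which summed to between 15497 and 20229 CPM per group. All 11 had counts, but at unequal levels. Averaged over all libraries, Ctss was the strongest, at 8897 CPM. Cd209a was at 0.088 CPM, with counts in 3 libraries, and Clec10a at 1.53 CPM, with counts in 46. The others, among them Itgax (325 CPM) and H2-Aa (2520 CPM), averaged at least 259 CPM (Itgam). The sum therefore does not speak for Cd209a or Clec10a. Markers of T and NK cells summed to at most 2.95 CPM per group (Cd3e had no count), B-cell markers to at most 18.7 CPM and mast cell and basophil markers to at most 8.73 CPM. The 7 measured markers of neutrophils and their precursors summed to between 519.9 and 961 CPM per group, and the 4 measured macrophage markers to between 271 and 1007 CPM. In these bulk libraries, fewer cells of a type and less RNA per cell cannot be told apart.

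RefSeq promoter windows (250 bases before to 50 after an annotated start, assembly GRCm38.p6) were at hand for 7 of the 10 members (Nfkb2, Rel, Rela, Nfkbia, Nfkbib, Nfkbie and Bcl3; Nfkb2 has 3 windows). A search of both strands for the kappaB consensus, the DNA motif of NF-kB dimers, found it in 5 of the 7 (Nfkb2, Rel, Nfkbia, Nfkbie and Bcl3), against 8.46% of all 32851 windows of the same length (2779). A match is a description of the letters and no evidence of binding. 4 windows are printed as examples with and without a match: Nfkbia and Nfkb2, which were called with PAM, LPS and CpGB, hold the motif, Nfkbib, called with the same ligands, has no match, and neither has Rela, which was called with no single ligand. Rel and Bcl3, whose windows are not printed, hold the motif and were called with no single ligand. Capitals mark the matches, read 5′ to 3′ on the strand of the gene. In Nfkbia (minus strand, chr12:55492598-55492897) the match starts 29 bases before the annotated start. In Nfkb2 (plus strand, chr19:46304487-46304786) 2 overlapping matches begin 39 and 38 bases before the start and another 11 bases before it. The windows of Nfkbib (minus strand, chr7:28766595-28766894) and Rela (plus strand, chr19:5637291-5637590) follow.
Nfkbia: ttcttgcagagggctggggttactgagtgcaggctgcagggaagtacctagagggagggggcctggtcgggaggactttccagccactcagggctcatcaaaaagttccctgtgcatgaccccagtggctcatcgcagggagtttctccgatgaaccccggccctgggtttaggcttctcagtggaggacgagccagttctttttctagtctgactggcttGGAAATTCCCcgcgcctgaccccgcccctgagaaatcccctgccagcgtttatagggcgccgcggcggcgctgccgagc
Nfkb2: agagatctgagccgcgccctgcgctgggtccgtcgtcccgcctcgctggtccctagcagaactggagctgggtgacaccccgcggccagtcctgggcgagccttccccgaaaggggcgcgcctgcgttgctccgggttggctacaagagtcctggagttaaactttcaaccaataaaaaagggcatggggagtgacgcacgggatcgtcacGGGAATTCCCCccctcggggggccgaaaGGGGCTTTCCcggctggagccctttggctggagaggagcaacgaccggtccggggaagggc
Nfkbib: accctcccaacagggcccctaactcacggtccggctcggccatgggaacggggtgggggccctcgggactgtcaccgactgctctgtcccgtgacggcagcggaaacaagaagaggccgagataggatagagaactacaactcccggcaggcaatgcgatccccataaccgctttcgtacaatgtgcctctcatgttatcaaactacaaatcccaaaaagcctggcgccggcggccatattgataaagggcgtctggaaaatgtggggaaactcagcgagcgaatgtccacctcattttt
Rela: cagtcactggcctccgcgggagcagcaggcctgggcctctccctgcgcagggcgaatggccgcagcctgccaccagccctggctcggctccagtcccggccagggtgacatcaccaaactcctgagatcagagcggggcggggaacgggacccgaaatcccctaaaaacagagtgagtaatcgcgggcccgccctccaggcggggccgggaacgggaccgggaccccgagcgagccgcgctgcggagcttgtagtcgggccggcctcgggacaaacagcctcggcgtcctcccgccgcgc

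The first comparison asked how each ligand alone moved the members. A gene was called when its adjusted p was under 0.05 and its absolute log2 fold change against Ctrl at least 1 (edgeR's quasi-likelihood test, Benjamini-Hochberg over the 4720 genes). Of the 70 member-by-ligand tests, 21 were called and all 21 were higher, against 8.7% of all genes and ligands called higher. PAM, LPS and CpGB each called the same 6 members (Nfkb1, Nfkb2, Nfkbia, Nfkbib, Nfkbie and Nfkbiz), where 8.01%, 14.6% and 10.8% of all genes were called higher. cGAMP called Nfkbia and Nfkbie (11.7% of all genes), Zymosan called Nfkbie (4.43%), and SeV (10.5%) and HMW (0.953%) called none. By an unadjusted p under 0.05 alone, SeV had 2 members past the threshold (Rela and Nfkbia) and HMW none, and DESeq2 called none with either. When all libraries were thinned to the smallest total, 11 member-by-ligand tests were called in place of 21, over 8 members, since Rel and Bcl3 did not pass the filter there. A gene that was not called is not thereby shown to be unchanged. The median log2 fold change of the 10 members was 1.27 (PAM), 1.37 (LPS), 1.36 (CpGB), 0.81 (cGAMP), 0.54 (Zymosan), 0.50 (SeV) and 0.08 (HMW), where the median of all genes lay between -0.09 and 0.03. These medians are descriptions, since they include Rel, which passed the filter through groups in which it was higher. The groups are also described below by whether all 3 libraries lay above all 3 Ctrl libraries, which held for 16.6% of all genes with PAM, 21.8% with LPS, 9.09% with HMW, 13.9% with Zymosan, 17.2% with SeV, 19% with cGAMP and 18.6% with CpGB. Marker sums moved with some ligands as well. Neutrophil markers, at 528 to 845 CPM in the 3 Ctrl libraries, were at 824 to 958 with PAM, 853 to 1072 with LPS and 696 to 815 with CpGB. Macrophage markers, at 643 to 693 CPM in Ctrl, were lower without overlap with CpGB (446 to 544) and Zymosan (289 to 461) and higher without overlap with SeV (812 to 901) and cGAMP (927 to 981). Dendritic and myeloid markers, at 17049.6 to 17878 CPM in Ctrl, were lower without overlap with PAM (15103 to 16198) and Zymosan (15828 to 17047) and higher with SeV (18482 to 18954). The part of these shifts in the members' values was not tested.

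Among the subunits, Nfkb1 and Nfkb2, the precursor genes, rose with PAM, LPS and CpGB. Nfkb1 was at 166, 274 and 202 CPM in the 3 Ctrl libraries, 538, 548 and 544 CPM with PAM, 603, 509.9 and 568 CPM with LPS and 505, 546 and 526 CPM with CpGB. All 9 libraries with these ligands lay above all Ctrl libraries, with no overlap. The log2 fold changes of Nfkb1 were 1.34 (SE 0.20, adjusted p = 4.19e-09) for PAM, 1.38 for LPS and 1.30 for CpGB. With Zymosan it was at 405, 339 and 313 CPM, also above all Ctrl libraries, and its log2 fold change of 0.69 (SE 0.21, adjusted p = 0.0268) stayed under the fold threshold. With HMW, SeV and cGAMP, Nfkb1 had log2 fold changes of 0.17, 0.34 and 0.37 and its libraries overlapped those of Ctrl.

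Nfkb2 was at 139, 125 and 154 CPM in Ctrl. It reached 302, 317 and 450.03 CPM with PAM, 499, 393 and 322 CPM with LPS and 311, 322 and 350.4 CPM with CpGB, so that the lowest of these 9 libraries lay far above the highest Ctrl library. The log2 fold changes were 1.34, 1.49 (SE 0.25, adjusted p = 1.00e-07) and 1.23. The CpGB call was lost on thinned libraries, at 0.82 (adjusted p = 0.0793). With the other 4 ligands Nfkb2 was not called, with log2 fold changes between -0.38 (HMW) and 0.17 (Zymosan). The 3 HMW libraries, at 116, 98.6 and 112 CPM, lay below all 3 Ctrl libraries (adjusted p = 0.792), as did those of 5.72% of all genes. Nfkb2 (chromosome 19, 46304320 to 46312385 on GRCm38, plus strand) overlaps Psd on the other strand, and without stated use of strand in counting their reads could be mixed. Psd was at 16.1 ± 7.92 CPM in Ctrl and at most 46.4 ± 18.8 CPM with any single ligand (PAM).

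The 3 subunits with an activation domain were called with no single ligand. Rela was at 111, 87.3 and 144 CPM in Ctrl, 191, 207 and 202 CPM with SeV and 211, 187 and 196 CPM with cGAMP. Both groups lay above all Ctrl libraries, by log2 fold changes of 0.78 (SE 0.30, adjusted p = 0.0477) and 0.75 (SE 0.30, adjusted p = 0.0546), under the fold threshold. Without Ctrl replicate 3, the highest of the 3 Ctrl libraries, both passed it, at 1.08 (adjusted p = 0.0336) and 1.07 (adjusted p = 0.0332). The summed macrophage markers were also highest with these 2 ligands among the single ligands, at 845 and 961 CPM against 661 CPM in Ctrl, and their part in the result was not tested. With the other 5 ligands the log2 fold change of Rela lay between -0.02 (HMW) and 0.51 (LPS). Relb, whose product pairs with processed Nfkb2 protein in the non-canonical branch of the pathway, was at 97.0, 149.7 and 173 CPM in Ctrl. Its log2 fold changes ran from -0.18 (HMW) to 0.47 (CpGB, adjusted p = 0.289), and only the CpGB libraries, at 243, 179 and 194 CPM, lay above all Ctrl libraries. Rel was too weakly counted in Ctrl to give a usable fold: its libraries held 0, 12.5 and 9.60 CPM there, 55.0, 35.1 and 18.4 CPM with cGAMP and 7.44, 27.7 and 44.7 CPM with LPS. From 2 counts in Ctrl and 15 with cGAMP, the ratio of levels was 4.34 (95% exact interval 1.01 to 39.1, counting error only). It is given as a description and not as a test, since Rel passed the filter through its high groups and cGAMP is the single ligand with its highest level.

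**Figure D1:**
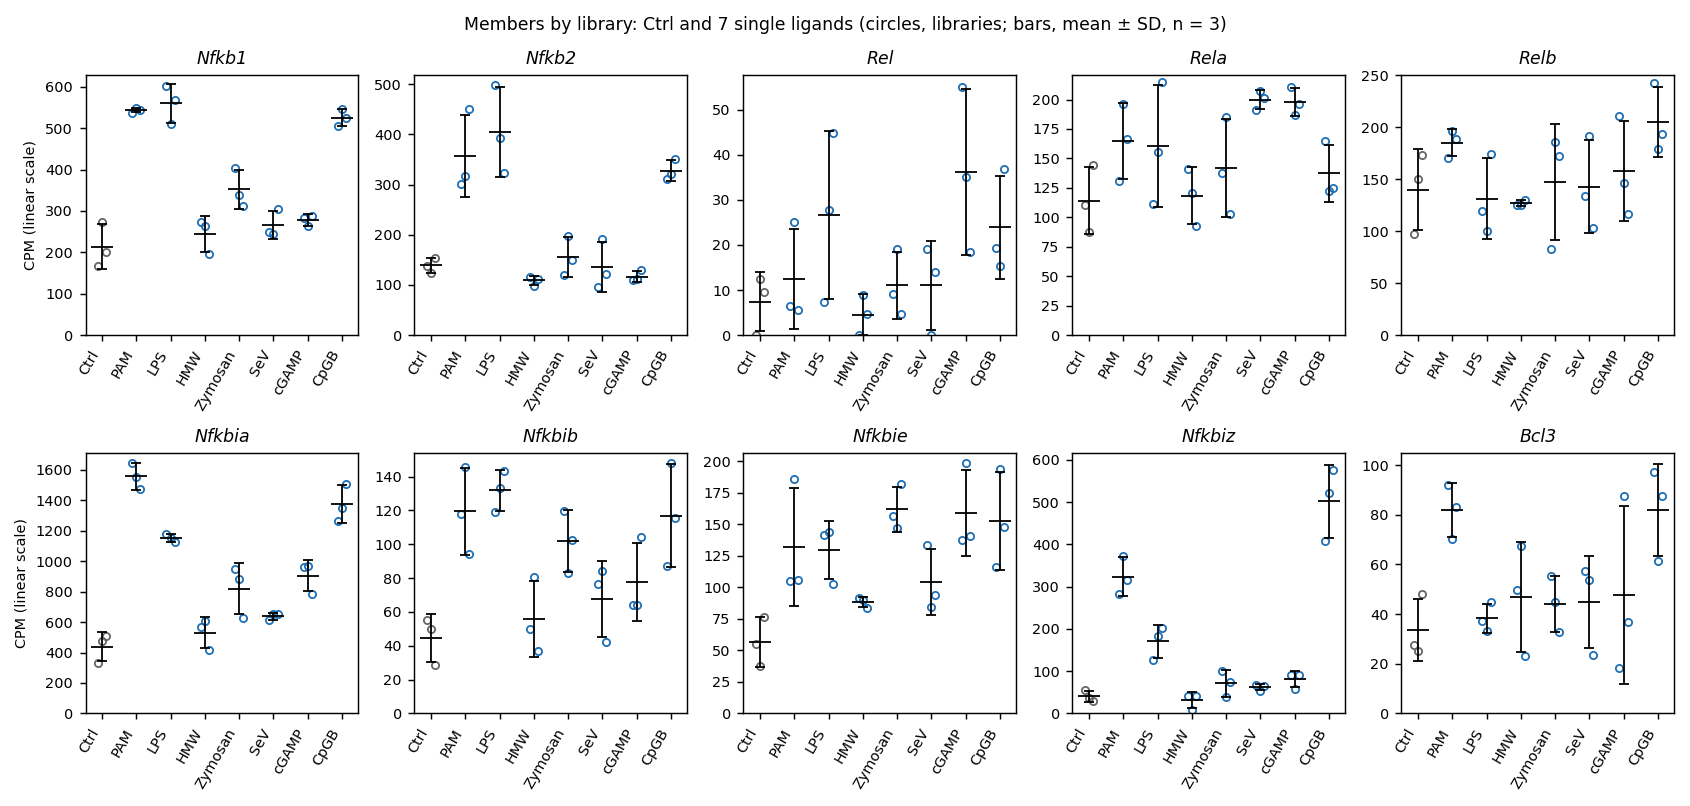
Level of each of the 10 genes in CPM (linear scale, starting at 0) in the 3 libraries of Ctrl and of each of the 7 single ligands; circles are libraries, horizontal lines the mean and vertical bars the SD (n = 3). Nfkb1, Nfkb2, Nfkbia and Nfkbiz stand clear of Ctrl with PAM, LPS and CpGB, while the circles of Relb and Rela overlap Ctrl for most ligands.

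Among the classical inhibitors, Nfkbia, the feedback inhibitor that is resynthesised after activation, was the most abundant member in Ctrl and rose with 4 ligands. It was at 332, 474 and 509 CPM in Ctrl, 1647, 1553 and 1472 CPM with PAM, 1262, 1353 and 1508 CPM with CpGB, 1176, 1153 and 1128 CPM with LPS and 963, 969.95 and 786 CPM with cGAMP. None of these 12 libraries overlapped Ctrl. The log2 fold changes were 1.80 (SE 0.15, adjusted p = 1.74e-24) for PAM, 1.63 for CpGB, 1.37 for LPS and 1.02 (SE 0.16, adjusted p = 1.63e-08) for cGAMP. The cGAMP call rested on the fold threshold, which it missed in 7 of the alternative analyses (0.89 by DESeq2, adjusted p = 4.71e-06). Zymosan (948, 883 and 629.8 CPM) and SeV (612, 651 and 652 CPM) also lay above all Ctrl libraries, with log2 fold changes of 0.85 and 0.52 at adjusted p = 1.29e-05 and 0.0123, under the fold threshold, which Zymosan passed in 4 of the alternative analyses (at most 1.18). With HMW the log2 fold change was 0.24 (adjusted p = 0.737).

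Nfkbib was at 55.4, 49.9 and 28.8 CPM in Ctrl and at 119, 133 and 143 CPM with LPS, 87.3, 148 and 115 CPM with CpGB and 118, 146 and 94.5 CPM with PAM. The 9 libraries with these ligands lay above all Ctrl libraries. Its log2 fold changes were 1.62 (SE 0.45, adjusted p = 0.00224), 1.48 and 1.47. With Zymosan, at 119.6, 83.2 and 103 CPM, it passed the fold threshold and missed the p threshold, at 1.21 (SE 0.48, adjusted p = 0.1005). Nfkbib (chromosome 7, 28758251 to 28767512 on GRCm38, minus strand) overlaps Sirt2 on the other strand. Sirt2 was at 98.1 ± 73.7 CPM in Ctrl and between 73.9 and 144 CPM with the single ligands, with log2 fold changes of 0.24 for PAM, 0.12 for LPS and 0.06 for CpGB. Reads mixed between both genes were not tested. At 11 Ctrl counts, the PAM and CpGB calls were lost without Ctrl replicate 3, the lowest of the Ctrl libraries, at 1.21 (adjusted p = 0.129) and 1.30 (adjusted p = 0.0756), and the PAM call also without PAM replicate 2, at 1.33 (adjusted p = 0.0583). Without replicate 3 of all groups none of the 3 was called, LPS being at 1.28 (adjusted p = 0.0578), and without replicate 2 the PAM and CpGB calls were lost. On thinned libraries all 3 were lost, at 1.15 (adjusted p = 0.107) for LPS, 0.90 (adjusted p = 0.325) for PAM and 0.20 (adjusted p = 0.864) for CpGB.

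Nfkbie, the gene of IkB-epsilon, was at 55.4, 37.4 and 76.8 CPM in Ctrl and was called with 5 of the 7 ligands. Its levels were 156, 147 and 182 CPM with Zymosan, 138, 199 and 141 CPM with cGAMP and 116, 194 and 148 CPM with CpGB. PAM (132 ± 46.6 CPM, SD, n = 3) and LPS (129 ± 23.0 CPM) followed, and all 15 of these libraries lay above all Ctrl libraries. The log2 fold changes were 1.48 (SE 0.38, adjusted p = 0.00296) for Zymosan, 1.46 for cGAMP, 1.42 for CpGB, 1.20 for PAM and 1.11 for LPS. Zymosan and cGAMP, which called neither Nfkb1 nor Nfkb2, both called Nfkbie, and no pair among the 7 ligands differed in Nfkbie by the call rule. The PAM and LPS calls were lost with DESeq2, at 1.07 (adjusted p = 0.0804) and 0.98 (adjusted p = 0.0789), and without Ctrl replicate 2, the lowest of the Ctrl libraries, at 1.02 (adjusted p = 0.104) and 0.97 (adjusted p = 0.0873). Without replicate 2 of all groups 4 of the 5 calls were lost, at 0.67 (adjusted p = 0.439) for PAM, 0.89 (adjusted p = 0.165) for LPS, 1.10 (adjusted p = 0.0882) for CpGB and 1.11 (adjusted p = 0.0901) for cGAMP. The PAM call was also lost without PAM replicate 2, at 0.89 (adjusted p = 0.181), and the LPS call without replicate 1 of all groups, at 1.14 (adjusted p = 0.0601). On thinned libraries all 5 were lost, between 0.65 (adjusted p = 0.431) for CpGB and 1.14 (adjusted p = 0.167) for Zymosan.

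Of the nuclear members, Nfkbiz, which is needed for a subset of secondary NF-kB target genes such as Il6, moved most. It was at 55.4, 37.4 and 28.8 CPM in Ctrl, 408, 521 and 576 CPM with CpGB, 282, 372 and 317 CPM with PAM and 127, 183 and 201 CPM with LPS. The 3 ligands lay apart from Ctrl and from each other, with no overlap between any of these groups. The log2 fold changes were 3.69 (SE 0.33, adjusted p = 3.98e-21), 3.04 and 2.14. With 10 counts in Ctrl and 269 with CpGB, the ratio of levels was 13.4 (95% exact interval 7.16 to 28.2, counting error only). With cGAMP, at 91.7, 58.4 and 92.1 CPM, Nfkbiz lay above all Ctrl libraries and was not called, at 1.01 (SE 0.48, adjusted p = 0.127). Bcl3 was at 27.7, 24.9 and 48.0 CPM in Ctrl, 91.9, 70.4 and 83.3 CPM with PAM and 97.0, 61.3 and 87.6 CPM with CpGB. Both groups lay above all Ctrl libraries, and neither passed the p threshold at 9 counts in Ctrl. Their log2 fold changes were 1.20 (SE 0.54, adjusted p = 0.123) and 1.17 (SE 0.55, adjusted p = 0.116). With LPS Bcl3 was at 37.2, 33.3 and 44.7 CPM, and it overlapped Ctrl.

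The ligands were then compared with each other, without Ctrl. Of 210 tests (10 members, 21 pairs of ligands), 43 were called, against 13.7% of all genes and contrasts called in either direction, and 41 of 189 without Rel. Nfkbiz gave 15 of the 43 calls, Nfkb2 12, Nfkb1 5, Nfkbia 5, Nfkbib 4 and Rel 2, and Rela, Relb, Nfkbie and Bcl3 gave none. Among PAM, LPS and CpGB, the call rule separated 1 pair of ligands in 1 member: Nfkbiz was lower with LPS than with CpGB, by a log2 difference of -1.55 (adjusted p = 3.86e-11). Its differences of 0.89 for PAM against LPS and -0.65 for PAM against CpGB stayed under the fold threshold. In the order of its levels, CpGB (502 ± 86.0 CPM), PAM (324 ± 45.4 CPM), LPS (170.3 ± 39.0 CPM) and cGAMP (80.7 ± 19.3 CPM), each differed from the next at adjusted p under 0.05, and no step among cGAMP, Zymosan, SeV, Ctrl and HMW was past it. For Nfkb1 the order was LPS, PAM, CpGB, Zymosan, cGAMP, SeV, HMW and Ctrl, and only the step from CpGB to Zymosan was past 0.05 (adjusted p = 0.00129). For Nfkb2 only the step from CpGB to Zymosan was past it as well (adjusted p = 1.79e-05), and for Nfkbia only the step from LPS to cGAMP (adjusted p = 0.0414). For Rel, Rela, Relb, Nfkbib, Nfkbie and Bcl3 no step between neighbours was. In all, 6 of 70 steps were.

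In combinations, more members were called. Against Ctrl, 97 of 210 member-by-pair tests and 208 of 350 member-by-triplet tests were called, all higher, where 13.7% and 15.7% of all genes were called higher with pairs and triplets. Rel passed the filter through its high groups, so its calls are no support, and without it the counts were 94 of 189 and 199 of 315. Bcl3, Nfkbib, Nfkbie and Nfkbiz, which failed the filter with HMW and Ctrl alone, stay in these counts and carry a like limit. Between 1 and 7 of the 9 members other than Rel were called per pair (7 with LPS + CpGB) and between 1 and 8 per triplet. Relb was called in none of the 63 stimulated conditions by edgeR, with none at an unadjusted p under 0.05 and none by DESeq2, Rela in 1 pair and 4 triplets, Bcl3 in 1 pair and 6 triplets and Rel in 3 pairs and 9 triplets. Nfkbia was called in 19 of 21 pairs and 34 of 35 triplets. Nfkb1, Nfkb2, Nfkbib and Nfkbiz were each called in 15 pairs, and in 31, 31, 34 and 33 triplets. Nfkbie was called in 13 pairs and 26 triplets.

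The calls followed the presence of PAM, LPS or CpGB, a grouping of the ligands made after the single-ligand values were seen and given as a description. 49 of the 63 conditions hold at least 1 of these 3 ligands and 14 hold none. Nfkb1, Nfkb2, Nfkbia and Nfkbiz were called in 49 of the 49, where 15.1% of all genes were called higher. In the 14 others Nfkb1 and Nfkb2 were called in none, Nfkbiz in 2 and Nfkbia in 8, against 11.3% of all genes. Nfkbib was called in 47 of the 49 and 5 of the 14, and Nfkbie in 33 of the 49 and 11 of the 14. The group means of Nfkb2 did not overlap between both classes: they lay between 109 CPM (HMW) and 193 CPM (HMW + Zymosan + cGAMP) without these ligands and between 311 CPM and 673 CPM with them. Nfkb1 was separated in the same way, at 245 to 423 CPM without and 452 to 879 CPM with them. Nfkbiz lay between 30.8 and 106 CPM without and between 137 and 626 CPM with them. Nfkbie ran the other way in its medians, 163 CPM without these ligands and 124 CPM with them.

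Some of these counts depended on the test, the scaling, the depth or 1 Ctrl library. On thinned libraries Nfkbia was called in 49, Nfkbiz in 47, Nfkb1 in 45 and Nfkb2 in 37 of the 49. Nfkbib was called there in 26 of the 49 and 0 of the 14, and Nfkbie in 2 and 2. With library size alone as the scaling, Nfkbie was called in 4 of the 49 and 10 of the 14. Nfkb1 and Nfkb2 were then called in 43 and 42 of the 49. With RLE factors, another scaling, Nfkbie was called in 19 of the 49. DESeq2 called Nfkb1 in 45, Nfkb2 in 48 and both Nfkbia and Nfkbiz in 49 of the 49 conditions with PAM, LPS or CpGB. It called Nfkbie in 15 of the 49, against 33 by edgeR, Rel in none, against 12, and Rela in none, against 5. Without Ctrl replicate 3, Rela was called in 25 of the 49 and 5 of the 14, Rel in 6 of the 49, Nfkbib in none of the 14, Nfkbiz in none of the 14 and Nfkbia in 11 of the 14. Without Ctrl replicate 2, Nfkb1 was called in 6 of the 14, Nfkbie in 14 of the 49 and Rela in none. Without Ctrl replicate 1, Rel was called in 3 of the 49, Rela in 3 and Nfkbia in 5 of the 14, and Nfkbiz in 3 of the 14. Relb was called in none of the 63 under any of the alternatives run.

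**Figure D2:**
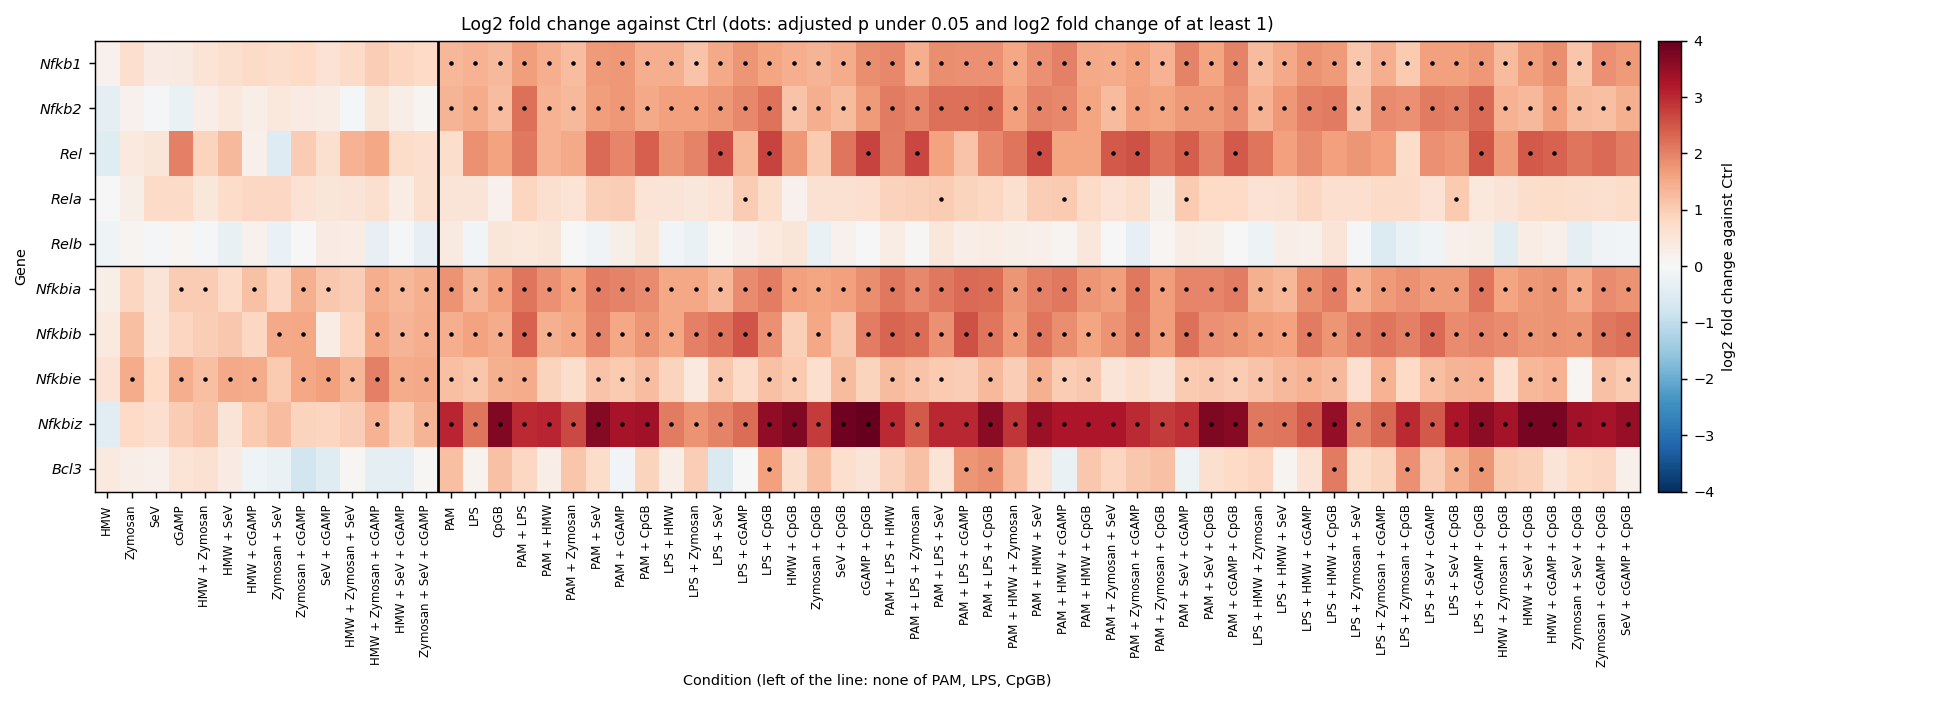
Log2 fold change against Ctrl of the 10 genes (rows, subunits above the horizontal line) in the 63 stimulated conditions (columns, with the 14 that hold none of PAM, LPS and CpGB left of the vertical line); colour runs from lower (blue) to higher (red) than Ctrl and a dot marks a call. Nfkb1, Nfkb2, Nfkbia and Nfkbiz are marked in each of the 49 conditions with PAM, LPS or CpGB, and Relb in none of the 63.

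The conditions with the highest level differed between members. Nfkb1 was highest with PAM + HMW + cGAMP (884, 954 and 798 CPM) and lowest in Ctrl. Nfkb2 was highest with LPS + cGAMP + CpGB (648, 713 and 658 CPM), a log2 fold change of 2.26. Nfkbia and Nfkbib were both highest with PAM + LPS + cGAMP, at 2064, 2137 and 2232 CPM and 267, 272 and 225 CPM. The log2 fold changes of these 2 inhibitor genes there were 2.27 and 2.54. Nfkbie was highest with HMW + Zymosan + cGAMP (273, 228 and 219 CPM), which holds none of PAM, LPS and CpGB. Its lowest stimulated condition was Zymosan + SeV + CpGB, at 61.2, 93.5 and 33.8 CPM, which overlapped Ctrl, although Zymosan and CpGB alone each raised it. Nfkbiz was highest with cGAMP + CpGB (552, 679.98 and 645 CPM). Bcl3, the nuclear coregulator, was highest with LPS + HMW + CpGB (136, 149 and 158 CPM), with a log2 fold change of 2.06. Rel was highest with LPS + CpGB (48.1, 62.4 and 51.7 CPM), and it had no count in 10 libraries of the whole series. Relb stayed between 101 and 205 CPM over all 64 groups.

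How far the 64 conditions, as opposed to the 3 libraries within each, account for a gene's spread was read as the share of variance between groups on the log2 scale. The median over all tested genes was 50.4%. Nfkbia (94.6%), Nfkbiz (94.2%), Nfkb2 (93.6%) and Nfkb1 (91.8%) lay far above it. Nfkbib (73.8%), Bcl3 (63.2%) and Nfkbie (62.6%) lay above it by less, and Rel (55.6%), Rela (53.6%) and Relb (48.6%) lay near it. The members also differ in counts, which averaged 98.4 per library for Nfkb1 and 26.3 for Relb, and the part of counting noise in these shares was not tested.

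Whether a pair gave what its 2 ligands would give together was tested as an interaction, the pair's log2 fold change minus the sum of those of its ligands. A call here needs only adjusted p under 0.05. Of 210 tests, 25 were called and all 25 were below the sum, against 3.5% of all genes and pairs called below and 1.08% above. The calls were 8 of Nfkbia, 8 of Nfkbie, 4 of Nfkb1, 4 of Nfkbiz and 1 of Nfkb2, and none of Rel, Rela, Relb, Nfkbib or Bcl3. All 21 interactions of a gene use the same 3 Ctrl libraries, so they are not independent of each other. DESeq2 called 18 of the 25, without replicate 2 of all groups 16 remained, and on libraries thinned to the smallest total 10 did. All 25 were below 0 in each of the 12 alternative analyses run.

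The largest shortfall was that of Nfkbiz with PAM + CpGB. The pair was at 344, 437 and 424 CPM (CpGB alone 408, 521 and 576 CPM, PAM alone 282, 372 and 317 CPM). Its libraries overlapped those of either ligand alone. The log2 fold change of the pair was 3.35, and its interaction was -3.38 (SE 0.41, adjusted p = 1.76e-12). With LPS + CpGB, Nfkbiz was at 505, 459 and 437 CPM and its interaction was -2.29 (SE 0.44, adjusted p = 1.35e-05). With PAM + LPS it was at 309.8, 305 and 319 CPM, and the interaction was -2.21 (SE 0.45, adjusted p = 7.81e-05). In the 3 pairs of PAM, LPS and CpGB, Nfkb1 and Nfkbia were also called below the sum each time. The interactions of Nfkb1 were -1.19, -1.11 and -1.03 for PAM + CpGB, LPS + CpGB and PAM + LPS, and those of Nfkbia -1.54, -0.95 and -1.04.

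For Nfkbie, 6 of the 8 called interactions were of pairs that join Zymosan or cGAMP with PAM, LPS or CpGB, and the other 2 were PAM + CpGB and LPS + CpGB. With Zymosan + CpGB it was at 58.9, 128 and 82.4 CPM, below CpGB alone (116, 194 and 148 CPM) and Zymosan alone (156, 147 and 182 CPM) in its mean. The interaction was -2.24 (SE 0.47, adjusted p = 0.000356). With LPS + Zymosan it was at 74.7, 93.7 and 57.8 CPM, with an interaction of -2.20 (SE 0.48, adjusted p = 0.000672). The pair lay below Zymosan alone without overlap, by a log2 difference of -1.09 (adjusted p = 0.00123). All 21 single-ligand libraries of Nfkbie lay above all 3 Ctrl libraries, which held 15 counts together, and each interaction subtracts 2 single-ligand fold changes against them.

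**Figure D3:**
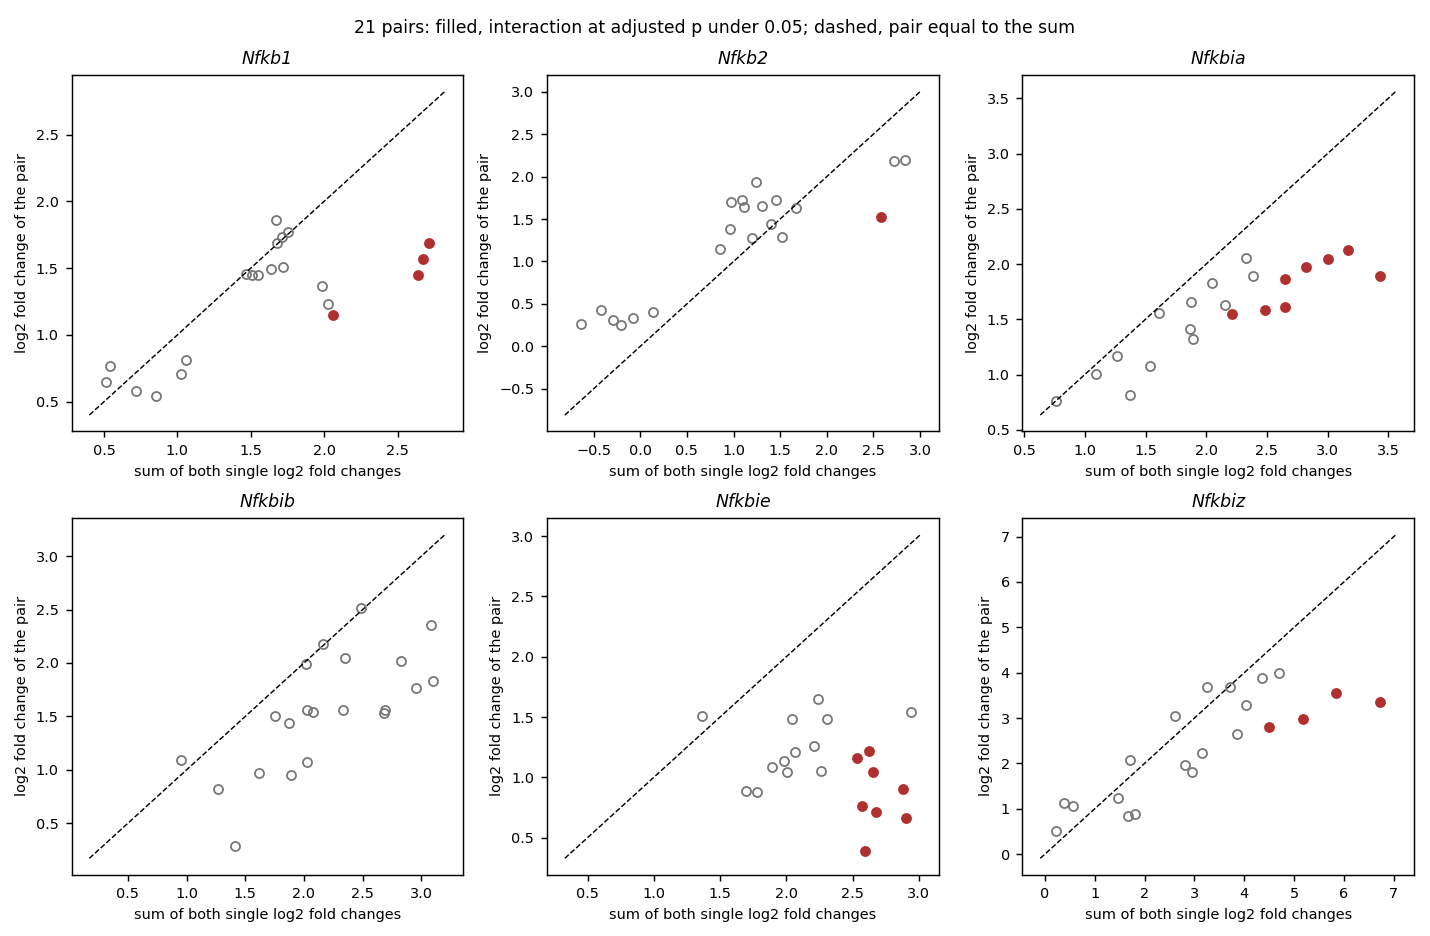
Observed log2 fold change of each of the 21 pairs (vertical axis) against the sum of the log2 fold changes of its 2 ligands (horizontal axis) for Nfkb1, Nfkb2, Nfkbia, Nfkbib, Nfkbie and Nfkbiz; the dashed line marks equality and filled points are called interactions. The 25 filled points all lie below the line, the farthest being Nfkbiz with PAM + CpGB, at -3.38 from it.

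Against 1 of their own ligands, pairs were higher in 50 of 420 member tests and lower in 2 (4.86% and 2.52% of all genes and contrasts). Without Rel these were 47 of 378 and 2. Nfkbiz gave 14 of the 52 calls, Nfkb2 12 and Nfkb1 9, and Rela and Relb none. Against 1 of their own pairs, triplets were higher in 64 of 1050 tests and lower in 1 (2.28% and 1.08%), with 21 calls of Nfkbiz and 13 of Nfkb2, and 61 and 1 of 945 without Rel. No pair raised a member above both of its ligands by a log2 difference of at least 1 with adjusted p under 0.05 (0 of 210 by edgeR, against 0.376% of all genes and pairs, 1 by unadjusted p, 0 by DESeq2). Without the fold threshold 7 were called, against 0.876%, and 32 had an unadjusted p under 0.05. These were Nfkb2 with PAM + LPS and LPS + CpGB, Nfkbia with LPS + cGAMP and LPS + CpGB, Nfkbib with LPS + cGAMP, Nfkb1 with cGAMP + CpGB and Nfkbiz with PAM + SeV. The smaller of the 2 log2 differences was 0.70 (adjusted p = 0.00105) for Nfkb2 with PAM + LPS and 0.90 (adjusted p = 0.0308) for Nfkbib with LPS + cGAMP. Nfkb2 was at 665, 689 and 588 CPM with PAM + LPS, above all libraries of either ligand alone. No triplet raised a member above all 3 of its pairs by a log2 difference of at least 1 (0 of 350, against 0.0127%, with 0 by unadjusted p and 0 by DESeq2). Without the fold threshold 0 were called as well, against 0.0369%, and 9 had an unadjusted p under 0.05.

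Each ligand was also added onto the 22 backgrounds that lack it (Ctrl, 6 single ligands and 15 pairs), and its average effect was tested in the same fit, with a call at adjusted p under 0.05 and an absolute mean log2 difference of at least 0.5. Of 70 tests 19 were called, all higher, against 8.39% of all genes and ligands, and 16 of 63 without Rel. LPS raised 6 members other than Rel, PAM 5 and CpGB 5, against 14.9%, 6.53% and 6.12% of all genes raised. HMW, Zymosan, SeV and cGAMP raised no member by this rule, against 0.297%, 8.58%, 7.9% and 14.3%. The largest mean log2 effects were those of CpGB on Nfkbiz, 1.81 (SE 0.050, adjusted p = 1.06e-90), positive on 22 of 22 backgrounds, of PAM on Nfkbiz, 1.35 (SE 0.051, adjusted p = 5.34e-67), and of LPS on Nfkb2, 1.12 (SE 0.040, adjusted p = 6.92e-72). For Rel, given as a description because it passed the filter through its high groups, the mean differences were 0.85 with CpGB, 0.74 with PAM and 0.72 with LPS, positive on 17, 15 and 14 of 22 backgrounds. Bcl3 rose with CpGB by 0.83 (SE 0.099, adjusted p = 1.31e-13) and with LPS by 0.53, positive on 19 and 16 backgrounds.

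Smaller mean effects passed the p threshold without reaching the fold threshold. The largest were those of PAM on Bcl3, 0.49 (adjusted p = 1.26e-05), and of CpGB on Nfkbib, 0.43 (adjusted p = 1.24e-08). Nfkbib was also shifted by 0.38 with cGAMP (adjusted p = 1.54e-07) and by 0.34 with Zymosan (adjusted p = 6.12e-06). cGAMP shifted Nfkb1 by 0.34 (SE 0.033, adjusted p = 2.55e-19) and Nfkbia by 0.37 (SE 0.026, adjusted p = 2.69e-32), on 22 and 21 of 22 backgrounds. Zymosan shifted Relb by -0.30 (SE 0.060, adjusted p = 5.46e-06), the largest mean effect of any ligand on that gene, and was negative on 18 of 22 backgrounds. Rela was shifted by 0.25 (SE 0.049, adjusted p = 3.71e-06) with PAM. On single backgrounds, where a call needs a log2 difference of at least 1, 3 were lower: Nfkbie when LPS was added to Zymosan, Nfkbie when Zymosan was added to SeV + CpGB (-1.17) and Bcl3 when cGAMP was added to PAM (-1.31).

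The effect of adding PAM, LPS or CpGB differed with whether another of the 3 was already there, a division made after the values were seen. Adding CpGB moved Nfkbiz by a median log2 difference of 2.75 on the 11 backgrounds without PAM and LPS (called on 11) and of 0.65 on the 11 with at least 1 of them (called on 5). Adding PAM moved Nfkbiz by 2.18 on backgrounds without LPS and CpGB (called on 11 of 11) and by 0.08 with them (called on 1). Adding LPS moved it by 1.40 and -0.17, called on 8 and 0. For Nfkb2 the effect of LPS was 1.56 without and 0.68 with the others, called on 10 and 0, and for Nfkb1 the effect of PAM was 1.26 and 0.15, called on 8 and 0. The backgrounds share libraries, so these medians are descriptions.

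**Figure D4:**
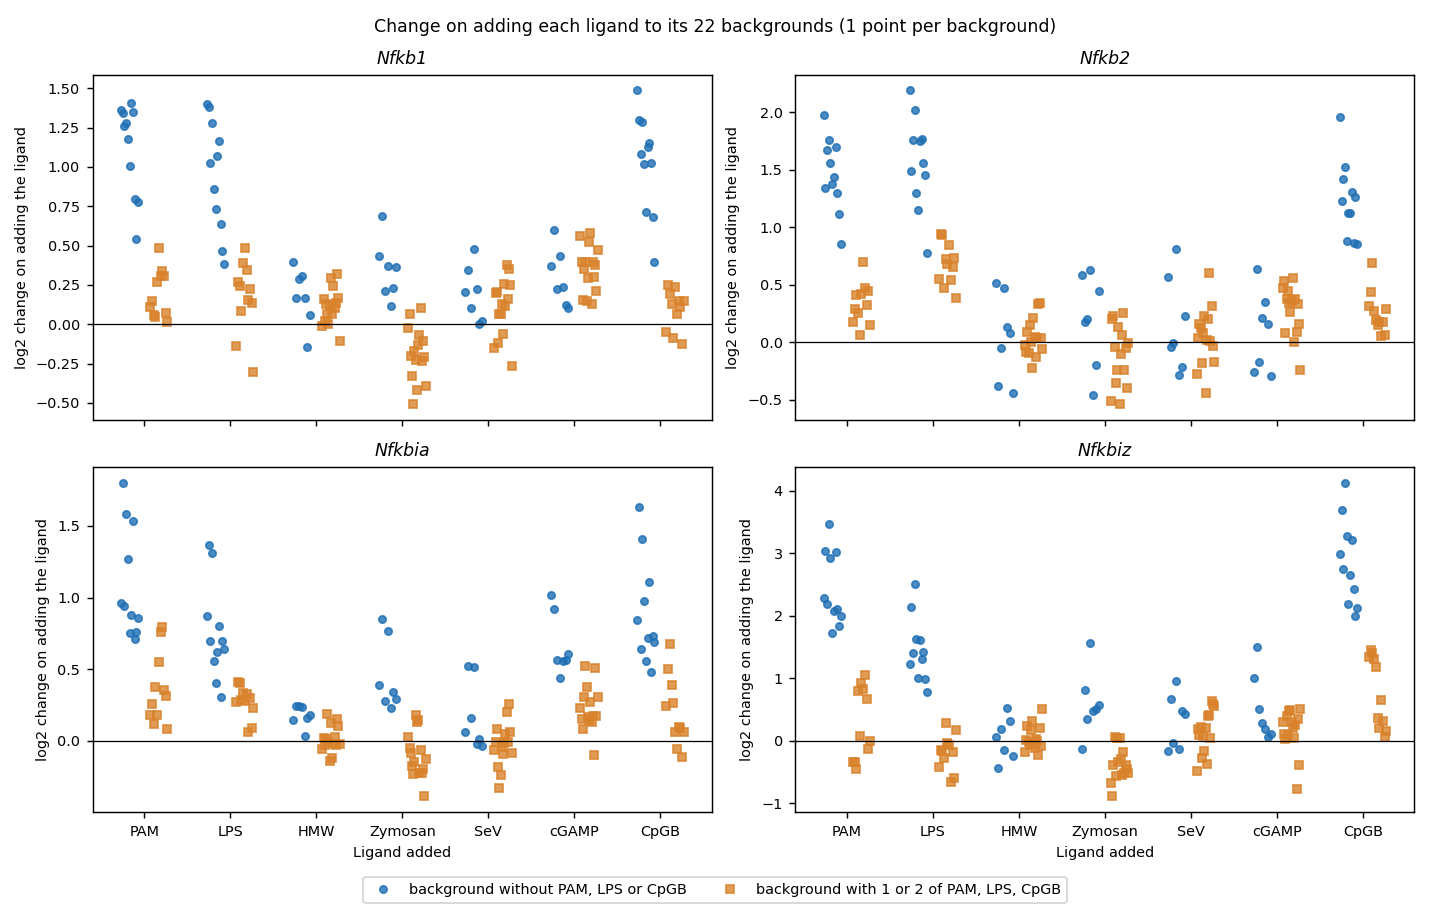
Log2 difference in Nfkb1, Nfkb2, Nfkbia and Nfkbiz (vertical axis) when each of the 7 ligands (horizontal axis) was added to 22 backgrounds; circles are backgrounds without PAM, LPS and CpGB and squares are backgrounds with 1 or 2 of them. For Nfkbiz the circles of PAM, LPS and CpGB lie above the squares, with medians of 2.18, 1.40 and 2.75 against 0.08, -0.17 and 0.65.

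Across the 64 group means, the correlations among Nfkb1, Nfkb2, Nfkbia, Nfkbib and Nfkbiz were of unequal size. Pearson's r on log2 CPM was 0.908 between Nfkb1 and Nfkbia, 0.900 between Nfkb1 and Nfkb2, 0.853 between Nfkb1 and Nfkbiz and 0.816 between Nfkb2 and Nfkbib. Over all 10 pairs of these 5 genes r ran down to 0.615 (Nfkbib and Nfkbiz), below the 0.715 of Rel with Nfkbiz, so the 5 are not set off from Rel. For Nfkbie r lay between -0.173 (Bcl3) and 0.230 (Relb) with the other 9. The groups share ligands and the libraries share their scaling, so these are descriptions over 64 points with no test. Among 4500 candidate genes, those most like Nfkb1 were Il6 (0.953), Il12a (0.925) and Ccl3 (0.911), all cytokine or chemokine genes. Those most like Nfkb2 were Cxcl16 (0.941), Il12a (0.939) and Il6 (0.937), and those most like Nfkbia were Ccl3 (0.947), Nfkb1 (0.908) and Il1a (0.904). Nfkbiz was most like Gng12 (0.877), Zfp811 (0.876) and Il1b (0.875), and Nfkbib most like Srgn (0.872), Ptgs2 (0.871) and Car13 (0.864). Bcl3 was most like Tnip3 (0.774), Pik3r5 (0.691) and Stat5a (0.689). For the other 4 members the single closest gene had a lower r than for those above. The closest genes were Mdfic (0.750), Gbp5 (0.728) and Irg1 (0.715) for Rela and Eci2 (0.641), Birc3 (0.625) and Ccdc50 (0.616) for Relb. For Nfkbie they were Aebp2 (0.618), Bbx (0.588) and Cxcl9 (0.581), and for Rel the closest was Il6 at 0.716.

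The rest of the pathway was read from 4 lists. They were chosen with earlier results of these data known, so counts of genes that rose in them are descriptions and no support. Of 20 established NF-kB target genes, all 20 tested, 17 rose with each of PAM, LPS and CpGB, 10 with Zymosan, 9 with cGAMP, 8 with SeV and none with HMW, and none fell with any single ligand. Their median log2 fold change was 2.22, 2.38 and 2.64 with PAM, LPS and CpGB and 0.97, 0.94, 0.88 and 0.19 with Zymosan, cGAMP, SeV and HMW. Of all genes, 8.01%, 14.6% and 10.8% were called higher with PAM, LPS and CpGB. With Zymosan, cGAMP, SeV and HMW these shares were 4.43%, 11.7%, 10.5% and 0.953%. The neutrophil chemokine gene Cxcl1 went from 57.4 ± 42.6 to 1724 ± 109.99 CPM with PAM, at 4.78 (SE 0.32, adjusted p = 4.44e-32) on the log2 scale. The inflammatory cytokine gene Il1b went from 313 ± 51.4 to 8129.7 ± 506 CPM with PAM. With Zymosan, cGAMP and SeV, 8 to 10 of the 20 target genes and 0 to 2 of the 10 members were called higher. The difference between both lists was not tested.

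The upstream genes were read in the same way, beside the shares of all genes called higher, which were 8.01% with PAM, 14.6% with LPS, 10.8% with CpGB, 11.7% with cGAMP, 10.5% with SeV, 4.43% with Zymosan and 0.953% with HMW. The lists differ in size and were not tested against each other. Chuk, Irak3 and Ripk2 had 2 counts each in Ctrl and so passed the filter through groups in which they were higher, and the counts that follow leave them out. Their ratios of levels, each at the ligand of their largest change, are descriptions and no tests. Of 11 genes of the IKK complex and its upstream kinases, 7 were tested (Map3k14, Map3k7, Tab1 and Tab3 had too few counts). Of the 6 besides Chuk, 1 (Tab2) was called higher with PAM, LPS, CpGB, SeV and cGAMP and none with Zymosan and HMW. Tab2, an adaptor of the TAK1 kinase, went from 34.4 ± 36.8 to 155 ± 45.1 CPM with LPS. It had 10 counts in Ctrl, so its level there was also poorly measured. For Chuk, which encodes the kinase IKK-alpha, the ratio of the HMW to the Ctrl level was 8.73 (95% exact interval 2.26 to 74.7, counting error only). Of 14 adaptors 12 were tested. Of the 10 besides Irak3 and Ripk2, 4 were called higher with each of PAM, LPS and CpGB (Myd88, Irak2, Traf1 and Malt1), 2 with cGAMP, 2 with SeV, 1 with Zymosan and none with HMW. Traf3, a ubiquitin ligase that restrains the non-canonical branch, fell with SeV, from 43.6 ± 27.2 to 8.87 ± 1.05 CPM, where 5.13% of all genes were called lower. For Irak3, an inhibitory member of the IRAK family, and Ripk2, a kinase adaptor, the ratios to the Ctrl level were 20.8 (95% exact interval 5.58 to 174, counting error only) with PAM and 11.6 (95% exact interval 3.00 to 98.9, counting error only) with cGAMP. Of 12 negative regulators outside the members 10 were tested, and 4 were called higher with PAM, 4 with LPS, 5 with CpGB, 2 with Zymosan, 2 with cGAMP, 1 with SeV and none with HMW. Zc3h12a, which encodes the RNase Regnase-1, rose with PAM from 49.2 ± 21.8 to 258 ± 13.1 CPM, and Tnip1, which encodes a partner of the A20 protein, from 157 ± 74.8 to 632 ± 111 CPM. Nfkbid, an atypical IkB gene outside the set of 10, fell with LPS, from 128 ± 68.8 to 36.6 ± 7.32 CPM, at -1.77 (SE 0.44, adjusted p = 0.000621) on the log2 scale. It was also called lower with PAM, CpGB and cGAMP, at log2 fold changes of -1.44, -1.23 and -1.12, and was the one gene of this list called lower, where 9.6% of all genes were called lower with LPS, 5.89% with PAM, 6.27% with CpGB and 5.91% with cGAMP.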

How the data were processed

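RNA of lysed BMDCs was reverse transcribed with primers that carry a sample barcode and a UMI, pooled and sequenced on a NextSeq 550, per the labels' protocols. The authors deposited 1 table of raw counts (UMIs per gene and library), and the submitters' processing notes name BWA 0.7.15 and mm10; use of strand was not given in the sources used here. All libraries entered 1 fit of 64 groups with edgeR 4.0.16 (R 4.3.3): TMM scaling, filterByExpr, quasi-likelihood tests, Benjamini-Hochberg adjustment over the 4720 genes within each contrast. Printed CPM use TMM-scaled totals. DESeq2 1.42.0 was an alternative; the procedure was tested on simulated data. The p of a gene above both (or all) parts is the largest of its one-sided p-values. Likeness is Pearson's r over group means of log2 CPM (prior count 2) among genes with a mean CPM of at least 20. Of each pathway list, genes were named by their largest change. No pair of libraries within a group was identical. By a chi-square over genes, some single libraries stood apart from both others of their group. Among them were replicate 3 of PAM + HMW + SeV (5.76 and 6.04 per degree of freedom) and replicate 1 of HMW + cGAMP + CpGB (4.21 and 4.41). Replicate 1 of PAM + LPS was at 2.55 and 2.59, and the median pair of libraries at 1.38. The members and lists were chosen with earlier results of these data known.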

Additional observations from a re-analysis of the deposited data

Results flagged for a closer look

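The results singled out here are pairs of ligands whose effect on a member differed from the sum of the effects of both ligands alone, by the interaction term of the fit across all genes (edgeR's quasi-likelihood test, adjusted p under 0.05). A negative value means that the log2 fold change of the pair lay below that sum. All values share the 3 Ctrl libraries. Nfkbiz had 4, with adjusted p from 1.76e-12 to 0.0352: -3.38 for PAM + CpGB, -2.29 for LPS + CpGB, -2.21 for PAM + LPS and -1.70 for Zymosan + CpGB. Nfkb1 had 4, with adjusted p from 0.000153 to 0.0199: -1.19 for PAM + CpGB, -1.11 for LPS + CpGB, -1.03 for PAM + LPS and -0.91 for LPS + Zymosan. Nfkb2 had 1, of -1.06 for PAM + CpGB (adjusted p = 0.0154). Nfkbia had 8, with adjusted p from 3.75e-12 to 0.0291: -1.54 for PAM + CpGB, -1.04 for PAM + Zymosan, -1.04 for PAM + LPS, -0.95 for LPS + CpGB, -0.90 for Zymosan + CpGB, -0.84 for PAM + cGAMP, -0.79 for cGAMP + CpGB and -0.67 for LPS + Zymosan. Nfkbie had 8, with adjusted p from 0.000356 to 0.0413: -2.24 for Zymosan + CpGB, -2.20 for LPS + Zymosan, -1.98 for cGAMP + CpGB, -1.97 for PAM + Zymosan, -1.81 for LPS + cGAMP, -1.61 for PAM + cGAMP, -1.40 for PAM + CpGB and -1.38 for LPS + CpGB. No member was called above the sum in any of the 21 pairs.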

How the results depend on the processing

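The 9 counts of called members were recomputed under other scaling (RLE factors, library size alone), without the filter on low counts, with DESeq2, with a replicate block, on libraries thinned to 46564 counts each and without each replicate. RLE factors, library size alone and DESeq2 shifted the all-gene median by -0.16, -0.37 and -0.17 on the log2 scale, and a change is read relative to that shift. 21 calls with single ligands became 11 on thinned libraries, and the 25 interactions became 10. Without 1 replicate, of all groups or of Ctrl alone, the interactions ran from 16 (without replicate 2) to 27 (without Ctrl replicate 3). Without the fold threshold, the count above both ligands was 7 in place of 0. All other counts stayed within 1.5 times, among them 65 (thinned) to 105 (no filter) for pairs, and 142 (thinned) to 224 (no filter) for triplets. Rel and Bcl3 were too low for the filter on thinned libraries, so those counts are over 8 members. With the libraries of 1 ligand and Ctrl alone, 5 to 8 members passed it, and 18 calls were made. The replicate numbers were not taken to pair the samples, since not every same-numbered pair correlated over 0.1 in its deviations from group means (mean r 0.028, lowest -0.56). By mean r, however, 169 libraries (88.0%, where 3 equal numbers give 33.3%) were closest to their own number, a hint from the data, not from the design. With the replicate block the counts were 21 for single ligands, 97 for pairs, 209 for triplets, 43 between ligands, 25 interactions and 19 for added ligands. No called value changed sign. The uncalled values that did, whose cause was not tested, were these log2 fold changes against Ctrl. With no filter on low counts: Relb LPS 0.15, Rela HMW 0.14, Nfkb2 SeV 0.18, Relb SeV 0.16. With libraries thinned to equal totals: Relb LPS 0.48, Rela HMW 0.27, Relb HMW 0.11, Nfkbib HMW -0.017, Nfkb2 Zymosan -0.38, Nfkb1 SeV -0.27, Nfkbib SeV -0.036, Nfkbiz SeV -0.25, Rela CpGB -0.32. With library size alone: Bcl3 LPS -0.15, Relb Zymosan -0.032, Relb cGAMP -0.16, Rela CpGB -0.036. With RLE factors: Relb Zymosan -0.027, Relb cGAMP -0.036. With DESeq2: Relb Zymosan -0.031, Relb cGAMP -0.029. Without 1 replicate: Rel PAM -0.29 to 1.28, Relb LPS -0.31 to 0.20, Rela HMW -0.18 to 0.39, Relb HMW -0.34 to 0.063, Nfkbiz HMW -1.12 to 0.14, Bcl3 HMW -0.21 to 1.20, Nfkb2 Zymosan -0.055 to 0.34, Rel Zymosan -0.28 to 1.12, Rela Zymosan -0.14 to 0.76, Relb Zymosan -0.082 to 0.34, Nfkb2 SeV -0.29 to 0.22, Rel SeV -0.18 to 1.45, Relb SeV -0.28 to 0.41, Bcl3 SeV -0.081 to 1.06, Relb cGAMP -0.19 to 0.48, Bcl3 cGAMP -0.35 to 1.17. Depth limits the members with under 20 Ctrl counts (Rel, Bcl3, Nfkbiz, Nfkbib and Nfkbie), whose changes against Ctrl with single ligands carry standard errors of up to 1.29 on the log2 scale (1.39 with pairs, for Rel).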
